A study of Mus musculus with 4 samples.

Results

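Albumin (Alb) and 9 other genes whose products the liver secretes into blood plasma were followed in colon scrapings of male C57BL/6J mice. The other genes were Serpina1c, Ahsg, Fga, Fgb, Fgg, Apoh, Apoa2, Ttr and Trf. The 10 genes were chosen by name from earlier measured values of these same arrays, and each was found among the 19938 genes with a probe set of their own. The values below are therefore a description of the genes, and no test was made on them. The genes had 11 probe sets in all, and where a gene had several the one with the highest mean signal was used, which applied to Fga.

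The 4 samples were pools of RNA. The young low-fat pool came from 6 mice aged 4 months that ate a purified diet with 10% of its energy as fat, and the young high-fat pool from 6 mice of that age given a diet with 45% of energy as fat for 2 weeks. The old low-fat and old high-fat pools each came from 8 mice aged 21 months on the same diets. Before the split into diet groups, all mice had received the low-fat diet. The labels name no transgene or deletion, and in both diets palm oil took the place of the lard in the original formulas. Every group was thus measured on 1 array (Affymetrix Mouse Gene 1.0 ST), no replicate error could be estimated and no p-value is given. A pool hides how many of its mice contributed to a signal.

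Plasma proteins are made mainly by hepatocytes, the main cell type of the liver, which release albumin as a carrier of fatty acids and other molecules, the fibrinogen chains as the material of blood clots, and a range of protease inhibitors and apolipoproteins. Their genes are switched on in hepatocytes by liver-enriched transcription factors of the HNF1, HNF4, FOXA and C/EBP families, some of which are also used by the intestinal epithelium. Several plasma protein genes, among them those of transthyretin and transferrin, are also active in other tissues.

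The values are log2 signals made with the Robust Multi-array Average (RMA) method, and linear signals are their antilogs. A linear signal of 50 on at least 1 array was the intensity floor of the study, and a gene was counted in a comparison when it passed this floor and differed by more than 2.0-fold, which is 1 on the log2 scale. This left 12666 genes. Of the 10 plasma protein genes, 5 passed the floor (Alb, Serpina1c, Apoa2, Ttr and Trf), whereas Ahsg, Fga, Fgb, Fgg and Apoh stayed below 50 on all 4 arrays. The arrays were alike in their median log2 signal, 6.121 to 6.201, and 57.1% to 58.0% of the probe sets lay over 50. The 17 colon epithelial markers measured were all above the floor, with summed linear signals of 108000 to 116000. Of 13 small intestine genes 11 also passed the floor, so that these lists do not tell the 2 tissues apart. In pooled tissue, fewer cells of a type and less RNA per cell cannot be told apart.

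Alb stood out on the old low-fat array. Its linear signal was 29.8 on the young low-fat, 32.0 on the young high-fat, 355 on the old low-fat and 33.7 on the old high-fat array. The 3 low values were all below the floor and close to each other. The log2 difference between old and young mice was 3.58 (11.9-fold) on the low-fat diet and 0.08 on the high-fat diet. Between the diets it was 0.10 in young mice and -3.40 (10.5-fold) in old mice. Because the low signals were below the floor these folds are not exact, and with signals under 50 raised to 50 the fold was 7.1.

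Serpina1c, which encodes an alpha-1-antitrypsin of the mouse, an inhibitor of neutrophil elastase, was distributed in the same way. Its linear signal was 11.2 on the young low-fat, 11.8 on the young high-fat, 77.6 on the old low-fat and 12.1 on the old high-fat array. Only the old low-fat array was over the floor. The age difference was 2.79 (6.93-fold) for low-fat and 0.04 for high-fat feeding, and the diet difference was 0.07 in young and -2.68 (6.41-fold) in old mice. With signals under 50 raised to 50, the fold was 1.55 and below the threshold.

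**Figure D1:**
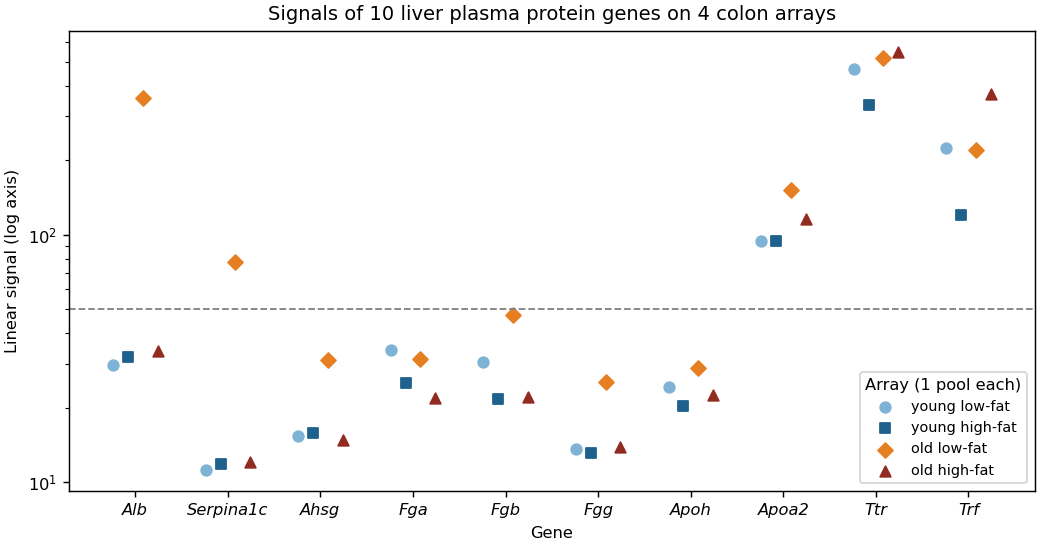
Linear signals (log axis) of the 10 plasma protein genes, with 1 point per array and a dashed line at the floor of 50. Alb and Serpina1c lie over the line on the old low-fat array alone, at 355 and 77.6, while Trf and Ttr reach their maximum on the old high-fat array, at 369 and 546.

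Mice carry several close copies of Serpina1c, so the other probe sets of the family were examined. Serpina1d had linear signals of 14.4, 14.8, 20.5 and 13.4 on the low-fat and high-fat arrays of young and then of old mice, a log2 age difference on the low-fat diet of 0.51. It was highest on the same array but below the floor throughout, and it is named here after its values were seen. A pair of probe sets annotated to 5 Serpina1 genes together could not be assigned to a single gene. The first had 22.1, 21.3, 56.1 and 21.1 and the second 40.4, 36.0, 104 and 38.3 on the arrays in the same order. Both were highest on the old low-fat array, with age differences of 1.35 and 1.36 on the low-fat diet and of -0.02 and 0.09 on the high-fat diet. Probes for such near-identical genes may respond to more than 1 of them, and the value of Serpina1c is uncertain in that respect.

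The stretches just before the transcription start of 5 genes are shown because the same 6 letters lay there in genes that did and in genes that did not stand out. They began from 16 bases (Serpina1d) to 43 bases (Fga) before the annotated start. They were taken from the RefSeq promoter table of mouse build GRCm38.p6, in which 8 of the 10 genes were searched. Ttr was left out of the search, and no promoter was found there for Trf. The stretches are written 5′ to 3′ on the strand of the gene, ending at the base before the start. Capitals mark these letters, GTTAAT, a part of the palindromic HNF1 binding motif, or ATTAAC where it lies on the opposite strand. The 250 bases are those at chr5:90460620-90460869 (plus strand) for Alb, chr12:103904951-103905200 (minus strand) for Serpina1c and chr12:103773634-103773883 (minus strand) for Serpina1d. The 100 bases are those at chr3:83026053-83026152 (plus strand) for Fga and chr3:83049864-83049963 (minus strand) for Fgb.
Alb: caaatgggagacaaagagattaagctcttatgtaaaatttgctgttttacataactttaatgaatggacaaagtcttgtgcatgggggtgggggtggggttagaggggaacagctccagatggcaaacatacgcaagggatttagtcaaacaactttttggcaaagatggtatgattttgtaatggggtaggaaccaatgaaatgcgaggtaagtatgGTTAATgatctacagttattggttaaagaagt
Serpina1c: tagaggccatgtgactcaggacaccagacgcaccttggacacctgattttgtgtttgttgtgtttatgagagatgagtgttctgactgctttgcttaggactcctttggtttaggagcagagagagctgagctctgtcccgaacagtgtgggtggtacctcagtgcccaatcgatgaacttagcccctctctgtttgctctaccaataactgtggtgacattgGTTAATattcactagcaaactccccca
Serpina1d: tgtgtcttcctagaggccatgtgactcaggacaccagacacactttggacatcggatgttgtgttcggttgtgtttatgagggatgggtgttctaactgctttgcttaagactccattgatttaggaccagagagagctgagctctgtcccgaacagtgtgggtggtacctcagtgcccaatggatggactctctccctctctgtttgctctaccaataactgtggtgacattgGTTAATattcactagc
Fga: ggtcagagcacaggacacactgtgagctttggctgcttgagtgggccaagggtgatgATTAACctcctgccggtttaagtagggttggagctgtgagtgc
Fgb: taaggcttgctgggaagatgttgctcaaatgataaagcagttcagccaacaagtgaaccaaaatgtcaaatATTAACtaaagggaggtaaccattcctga

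The letters GTTAAT, searched on both strands of the 250 bases before the start, were found in 4 of the 8 genes and in 6.43% of the 32851 promoters in the table. The match began 32 bases before the start in Alb, 27 in Serpina1c, 43 in Fga and 29 in Fgb, and none was found in Ahsg, Fgg, Apoh or Apoa2. CCAAT, also on both strands, was found in 3 of the 8 genes (Alb, Serpina1c and Apoa2) and in 33.8% of promoters, and TATAAA in 1 of the 8 (Apoa2) and in 12.4%. A gene was counted when any of its promoters held the letters, whereas the percentages are of single promoters. Apoa2 had more than 1 promoter, and TATAAA was not in all of them. In Serpina1c a CCAAT on the opposite strand shared 1 base with GTTAAT. These letters were chosen after the promoters had been seen, so the shares describe them and do not compare them by a test. The upstream bases of Serpina1d matched those of Serpina1c at 92.1% of 239 aligned positions, with GTTAAT in both, while their age differences on the low-fat diet were 0.51 and 2.79. Fga, with the letters, had an age difference of -0.11, and Fgg, without them, one of 0.90. Fga, Fgg and Serpina1d were below the floor on all arrays, and a role of the letters in the signals was not tested.

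The genes of the 3 fibrinogen chains, which join into the clotting protein, were below the floor on all arrays. Fgb, the beta chain, had linear signals of 30.6 on the young low-fat, 21.6 on the young high-fat, 47.1 on the old low-fat and 22.1 on the old high-fat array. Fgg, the gamma chain, had 13.6, 13.1, 25.4 and 13.9 on these arrays. Both were highest on the old low-fat array, with log2 age differences on the low-fat diet of 0.62 and 0.90. Their diet differences were -1.09 and -0.87 in old mice and -0.50 and -0.06 in young mice. Fga, the alpha chain, did not follow them. Its linear signals were 34.1, 25.2, 31.5 and 21.9, highest on the young low-fat array. Its second probe set gave 26.9, 20.2, 32.2 and 21.1, highest on the old low-fat array, so that the order of the low-fat arrays depended on the probe set.

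Ahsg, which encodes fetuin-A, an inhibitor of mineral deposition, had linear signals of 15.3 on the young low-fat, 15.8 on the young high-fat, 31.1 on the old low-fat and 14.8 on the old high-fat array. It was highest on the old low-fat array, with an age difference of 1.02 on that diet and a diet difference of -1.07 in old mice. Both pass 2.0-fold, but the gene was not counted because of its signals. Apoh, beta-2-glycoprotein I, which binds phospholipids, had 24.2, 20.2, 28.8 and 22.5 on the arrays in that order. It was highest on the old low-fat array by 0.25 on the log2 scale. Apoa2, a protein of high-density lipoprotein, was over the floor on every array at 94.1, 93.9, 151 and 116. It was higher in old than in young mice by 0.69 with low-fat and 0.30 with high-fat feeding, and was not over 2.0-fold in either.

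For signals below the floor, the spread of other low genes gives the scale. Of the 7261 genes below 50 on all arrays, the central 95% of age differences on the low-fat diet ran from -0.46 to 0.40 and that of diet differences in old mice from -0.40 to 0.38. The age differences of Ahsg, Fgg and Fgb on the low-fat diet were above this range, and those of Apoh (0.25) and Fga (-0.11) were within it. The diet differences in old mice of Fgb (-1.09), Ahsg (-1.07), Fgg (-0.87) and Fga (-0.53) were below their range, and that of Apoh (-0.35) was within it. For diet in young mice the range was -0.45 to 0.36. Fgb (-0.50) was below it, and Fga (-0.44), Apoh (-0.26), Fgg (-0.06) and Ahsg (0.04) were within it. When these low genes were ordered by the log2 gap between the old low-fat array and the highest of the other 3, Ahsg was the first with 0.98, Fgg the second with 0.87 and Fgb the seventh with 0.62. The other genes near the top included Kng1, kininogen, with linear signals of 14.9, 15.1, 26.1 and 16.3 on the low-fat and high-fat arrays of young and then of old mice. Cp, ceruloplasmin, a copper carrier of plasma, had 21.2, 23.2, 43.3 and 28.6. Both are plasma proteins and are named here after their values were seen. The members had been selected on these arrays. Their places outside these ranges and in this order therefore only describe them.

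Of the 10 members, 7 were highest on the old low-fat array. Of all genes, 22.6% were highest on that array. Among genes that passed the floor it was 3 of the 5 members and 24.3% of genes, and among genes below 50 throughout it was 4 of the 5 members and 19.7% of genes. Because the members were selected on these arrays, nothing is read from these shares. No member was lowest on the old low-fat array, and 6 were lowest on the young high-fat array. The share of all genes was not computed for these counts, and nothing is read from them either.

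Trf, transferrin, the iron carrier of plasma, behaved differently. Its linear signal was 223 on the young low-fat, 120 on the young high-fat, 220 on the old low-fat and 369 on the old high-fat array. All 4 were over the floor, and the low-fat arrays of both ages were close, with a log2 difference of -0.02. On the high-fat diet Trf was higher in old mice by 1.62 (3.08-fold). Its log2 diet difference was -0.90 in young and 0.75 in old mice. The age difference on the low-fat diet minus that on the high-fat diet was -1.64 for Trf, against 3.50 for Alb and 2.75 for Serpina1c. The gene with the value nearest to that of Trf was Pdzk1ip1 (-1.63), a small membrane protein of epithelia, with linear signals of 766, 419, 458 and 775 on the arrays in the same order. It was followed by Retn (-1.70), the gene of the fat cell hormone resistin, the olfactory receptor gene Olfr767 (-1.74), Pcx (-1.54), pyruvate carboxylase, and Plin1 (-1.51), the lipid droplet protein perilipin.

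Ttr, transthyretin, which carries thyroid hormone and retinol-binding protein, had linear signals of 467 on the young low-fat, 335 on the young high-fat, 517 on the old low-fat and 546 on the old high-fat array. The young high-fat array was the lowest, as for Trf, and the other 3 lay close together. The log2 age difference was 0.15 for low-fat and 0.71 for high-fat feeding, and neither it nor the diet differences of -0.48 and 0.08 passed 2.0-fold. Of 8 other genes for the binding, uptake or storage of retinol or retinoic acid, 7 were measured and 6 passed the floor. None was over 2.0-fold in any comparison. Rbp4, the retinol-binding protein that travels with transthyretin in plasma, had linear signals of 161, 141, 151 and 179 on the arrays in the same order, with its minimum on the high-fat array of young mice and its maximum on that of old mice.

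**Figure D2:**
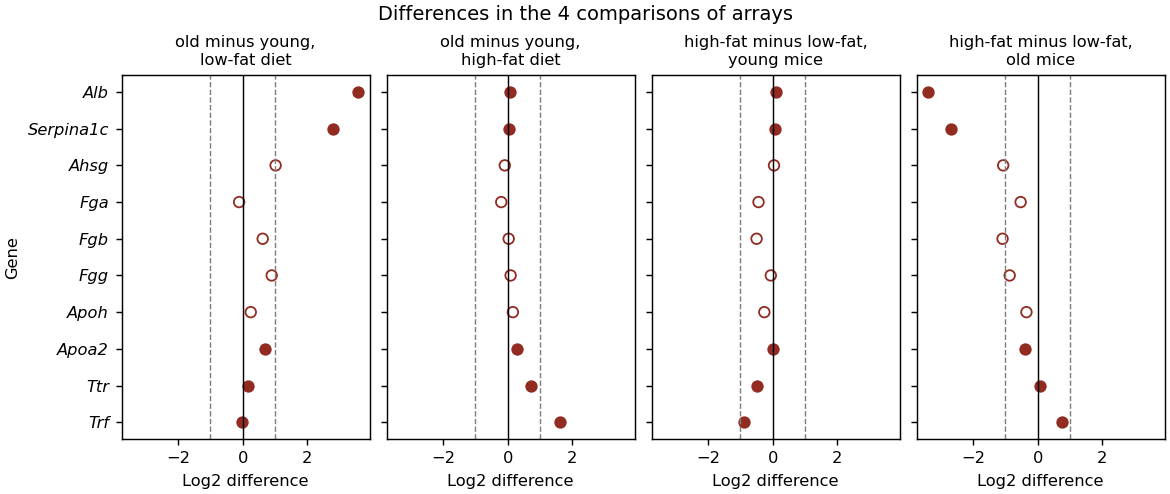
Log2 differences of the 10 genes in the 4 comparisons of arrays, with filled points for genes over the floor of 50 on at least 1 array, open points for the others and dashed lines at 2.0-fold. Alb and Serpina1c are far to the right for age on the low-fat diet (3.58 and 2.79) and far to the left for diet in old mice (-3.40 and -2.68), and Trf is right of the line for age on the high-fat diet (1.62).

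The counts over 2.0-fold in each comparison were set beside those of all 12666 genes. For age on the low-fat diet, 2 members (Alb and Serpina1c) were higher in old mice, as were 0.371% of all genes, and no member was among the 0.0553% that were lower. For age on the high-fat diet, 1 member (Trf) was higher beside 0.489% of all genes and none was among the 0.174% that were lower. For diet in old mice, 2 members (Alb and Serpina1c) were lower beside 0.0474% of all genes, and none was among the 0.0553% that were higher. For diet in young mice, no member was among the 0.079% of genes that were higher or the 0.0395% that were lower. The members had been selected on these values, and the shares of all genes are given as background only. The age comparison on the low-fat diet and the diet comparison in old mice share the old low-fat array, so that both counts of 2 rest on 1 array.

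Over all 10 members the median log2 difference was 0.65 for age on the low-fat diet, 0.08 for age on the high-fat diet, -0.16 for diet in young mice and -0.70 for diet in old mice. Over all genes the medians were -0.02, 0.01, -0.03 and 0.01. Of the members over the floor on every array, Apoa2 was number 148 of 12666 genes in the age difference on the low-fat diet. Trf was number 12 in the age difference on the high-fat diet and number 24 in the diet difference in old mice. In the diet difference in young mice it was the ninth lowest. As the members were selected on these arrays, nothing is read from these medians and ranks.

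A gene was next counted as standing apart on an array when its signal there was over 50 and over 2.0-fold above the highest of the other 3. On the old low-fat array, 3 genes did so, 0.0248% of those over 50 on it: Alb with a log2 gap of 3.40, Serpina1c with 2.68 and the immunoglobulin light chain segment Igkv4-91 with 2.00. Igkv4-91 had linear signals of 32.3, 30.7, 212 and 53.0 on the low-fat and high-fat arrays of young and then of old mice. The gaps that followed were smaller, with 0.80 for Reg3g, an antimicrobial lectin of the gut epithelium (1930, 1370, 3370 and 1140 on the same arrays). Next came Igha, the heavy chain of IgA, with 0.71, Steap4, a metalloreductase, and Mfsd2a, a lipid transporter, with 0.70 each, and Osmr, the receptor of oncostatin M, with 0.69. C1qb, a chain of complement C1q, and Gem, a small GTPase, each had 0.62. These are the 10 genes with the largest gaps. Alb and Serpina1c had been selected on these arrays, so that their places among them are description only. With signals below 50 raised to 50, or with a floor of 100, the count on the old low-fat array was 2, and Serpina1c was the gene lost. The counts on the other arrays were 1 on the young low-fat, 6 on the young high-fat and 5 on the old high-fat array.

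**Figure D3:**
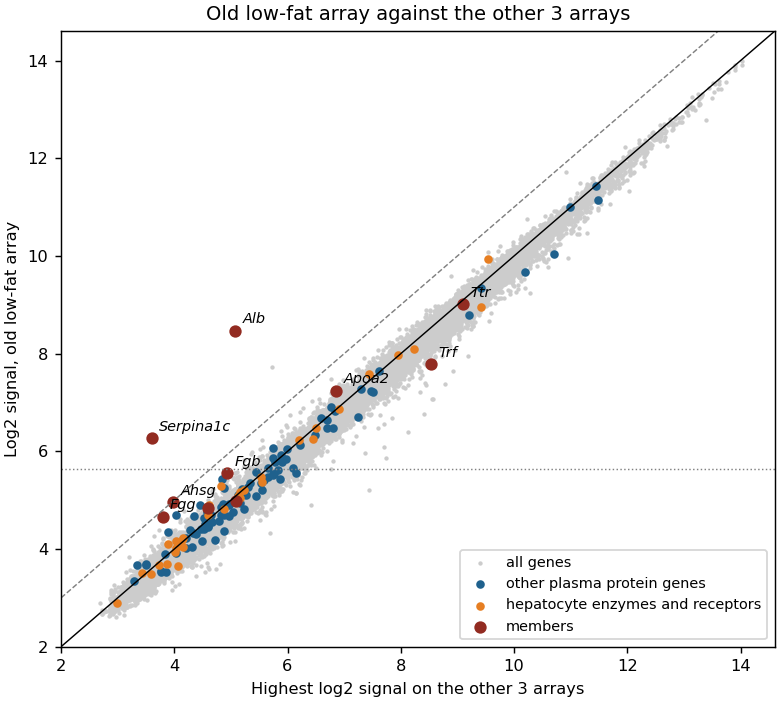
Log2 signal on the old low-fat array against the highest log2 signal on the other 3 arrays for all genes (grey), other plasma protein genes (blue), hepatocyte enzymes and receptors (orange) and the 10 members (red), with a solid line at equality, a dashed line 1 above it and a dotted line at the floor. Alb (3.40 above equality) and Serpina1c (2.68) lie apart from all other plasma protein and hepatocyte genes.

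To see whether other liver products were high on the same array, lists of 106 other plasma protein genes and 34 hepatocyte enzymes, transporters and receptors were examined. Of the plasma protein genes 93 were measured and 37 passed the floor. Their median age difference on the low-fat diet was 0.05, and no gene of the 37 was over 2.0-fold in that comparison or in either diet comparison. The largest groups, carrier proteins, complement and coagulation factors, had medians of 0.05, 0.08 and 0.04. Protease inhibitors, apolipoproteins and acute phase proteins had 0.09, 0.02 and -0.06. Among genes over the floor, the medians were 0.72 for 3 protease inhibitors and 0.31 for 7 apolipoproteins. Carrier proteins, complement, coagulation factors and acute phase proteins over the floor had -0.09, 0.12, 0.21 and -0.18. Serpina3n, an acute phase protease inhibitor, was the only one of the 37 genes over 2.0-fold, and it was so for age on the high-fat diet. Its linear signals were 57.1 on the young low-fat, 45.1 on the young high-fat, 103 on the old low-fat and 96.9 on the old high-fat array. It was thus high on both old arrays, unlike Alb. Apob, the main protein of lipoprotein particles and made by the intestine as well as the liver, was also higher on both old arrays (1350, 1390, 2050 and 2030). Apoa1, the main protein of high-density lipoprotein, had 88.5, 97.5, 120 and 108, with its maximum on the old low-fat array like Apoa2. Selenop, the selenium carrier, which had the highest mean of the carrier proteins, had 2700, 2740, 2750 and 2800, and Saa1, a serum amyloid A of the acute phase, had 2850, 2150, 2270 and 2760. In all, 29 of the 93 genes (31.2%) were highest on the old low-fat array, beside 22.6% of all genes. Of the 56 that were below 50 on all arrays, 6 lay above the central range of low genes in the age difference on the low-fat diet (Cp, Kng1, Mug1, Serpina1d, Orm1 and Pzp) and 1 below it (Orm2), and these too are named after their values were seen.

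Of the hepatocyte genes 32 were measured and 9 passed the floor. The median age difference of these genes was 0.06 on the low-fat diet, their median diet difference in old mice was -0.08, and their summed linear signals were 2810 on the young low-fat, 2590 on the young high-fat, 3090 on the old low-fat and 2750 on the old high-fat array. The sum was highest on the old low-fat array, as were 12 of the 32 genes (37.5%, beside 22.6% of all genes). In old mice 25 of the 32 were lower and 7 higher, at any size, with high-fat than with low-fat feeding. Of all 19938 genes, 9624 were lower and 10261 higher. Tat, a tyrosine-degrading enzyme and the gene with the highest mean, had 745, 737, 980 and 676. Without Tat, a sum added after the values were seen, the sums were 2060, 1860, 2110 and 2080. The lead of the old low-fat array over the next thus shrank from 0.14 to 0.02 on the log2 scale. Single genes such as Hpd (680, 543, 498 and 560) still weighed heavily in these sums. They say little about the low genes of the list. Of these genes only Cyp2e1, a cytochrome P450 that oxidises ethanol, was over 2.0-fold in a comparison. Its linear signals were 115, 43.5, 191 and 173, low on the young high-fat array. Of the 32 genes, 23 were below 50 on all arrays. In the age difference on the low-fat diet 3 of them lay above the central range of low genes and none lay below it. Uox, urate oxidase, had linear signals of 18.9, 18.5, 30.1 and 24.5, Tdo2, which degrades tryptophan, 11.9, 16.3, 17.9 and 13.4, and Mat1a, which makes S-adenosylmethionine, 28.2, 27.6, 38.9 and 25.6. All 3 were highest on the old low-fat array. Other genes of the list were low on every array. Cyp7a1, the first enzyme of bile acid synthesis, had signals of 12.1, 10.4, 11.3 and 11.8, and Cyp2c29, a drug-metabolizing enzyme, 13.2, 11.9, 12.7 and 11.4. Slc10a1, the bile acid importer of hepatocytes, had 15.9, 15.0, 18.1 and 17.5. The 6 genes with low signals are named here after their values were seen. Their signals in liver were not analysed here, and the part of liver RNA in the Alb signal was not tested.

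Most of the transcription factors that act on plasma protein genes were measured over the floor in the colon. Hnf4a, a nuclear receptor of liver and gut epithelium, had linear signals of 3250 on the young low-fat, 2400 on the young high-fat, 2500 on the old low-fat and 3140 on the old high-fat array, and Foxa1, a factor that opens chromatin, had 685, 697, 638 and 593. Of 15 listed factors 13 were measured and 11 passed the floor, none was over 2.0-fold in any comparison, and their median age difference on the low-fat diet was -0.14. The genes of the HNF1 factors were not analysed here.

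Genes next to the members on the chromosome, in the order of the RefSeq gene table, were then examined. Beside Alb, the neighbours Afp, alpha-fetoprotein, and Afm, afamin, are members of the albumin gene family. Afp had linear signals of 27.5 on the young low-fat, 20.8 on the young high-fat, 23.9 on the old low-fat and 24.5 on the old high-fat array, and Afm 22.6, 23.2, 22.8 and 23.3. Both were below the floor, with age differences on the low-fat diet of -0.21 and 0.01. Ankrd17, on the other side of Alb, was expressed at 986, 960, 974 and 944. Near the fibrinogen genes, which lie side by side, Plrg1 had 902, 901, 954 and 1070. Srprb, next to Trf, had 407, 438, 393 and 430. Apart from Serpina1d, no measured neighbour of Alb, Serpina1c or Fgb that is not itself a member exceeded 0.12 in the age difference on the low-fat diet. Afp, Afm, Ankrd17, Plrg1 and Srprb were chosen for their position after their values were seen.

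**Figure D4:**
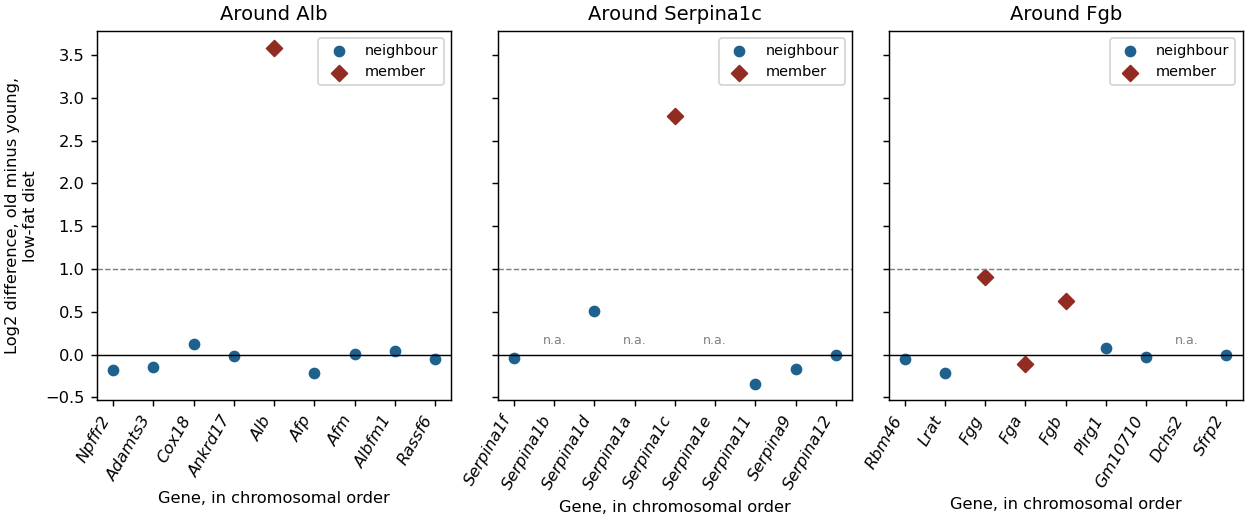
Log2 age difference on the low-fat diet for the genes around Alb, Serpina1c and Fgb in chromosomal order, with members as red diamonds, neighbours as blue circles, n.a. for genes without a probe set of their own and a dashed line at 2.0-fold. Alb (3.58) and Serpina1c (2.79) lie above all measured neighbours, the highest of which is Serpina1d at 0.51.

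The signals of fat cell and smooth muscle markers differed between the arrays, and those of the fat cell markers moved with Trf. Of 14 fat cell markers measured, 12 had their maximum on the old high-fat array, and their summed linear signals were 3380 on the young low-fat, 2790 on the young high-fat, 3530 on the old low-fat and 5450 on the old high-fat array. Trf was likewise lowest on the high-fat array of young and highest on that of old mice. The median age difference of the fat cell markers was 0.02 for low-fat and 1.00 for high-fat feeding, and their median diet difference was -0.47 in young and 0.77 in old mice, beside -0.02, 1.62, -0.90 and 0.75 for Trf. Trf is known to be expressed in adipose tissue, and the part of fat cells in its signal was not tested. Of 10 smooth muscle markers, 9 had their maximum on the young high-fat array, where Trf and Ttr were lowest, with sums of 1650, 4200, 1970 and 1640. The part of muscle in these low values was not tested.

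**Figure D5:**
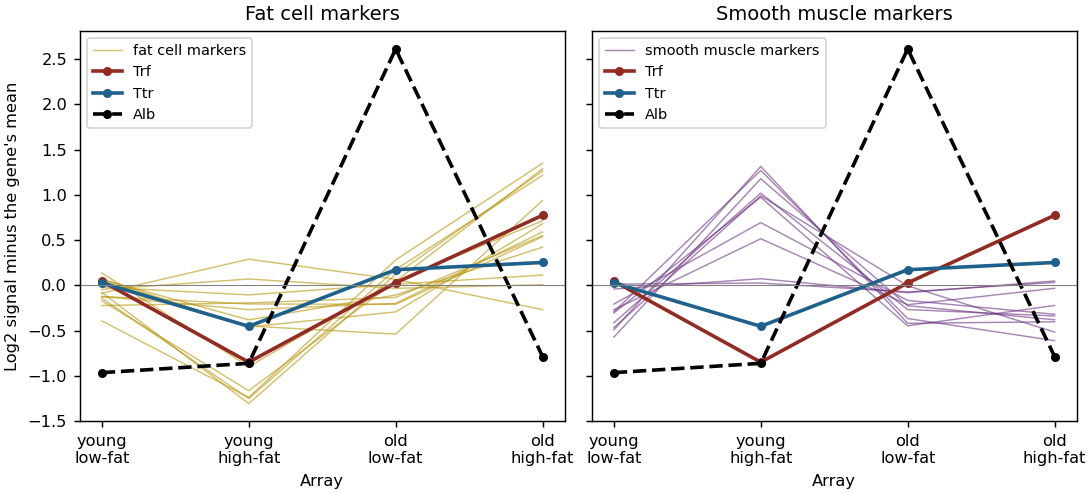
Log2 signal minus the mean of the gene over the 4 arrays for Trf, Ttr and Alb and for each fat cell marker (left) and smooth muscle marker (right). Trf lies among the fat cell markers, 12 of 14 of which peak on the old high-fat array, and opposite to the smooth muscle markers on the young high-fat array, whereas Alb peaks on the old low-fat array.

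The sums of other tissues were compared in the same way. The pancreatic acinar list, used in place of the pancreas genes that the study took out, had 27 genes measured and sums of 10200, 8570, 11600 and 13700 on the low-fat and high-fat arrays of young and then of old mice. Most of this was Sycn, a zymogen granule protein, with 7780, 6420, 9580 and 11500, while 16 of the 27 genes were highest on the young low-fat array. Without Sycn the sums were 2380, 2150, 2020 and 2220. The 3 erythroid genes measured, as a mark of blood, had 94.1, 86.0, 88.8 and 91.2, all below the floor as single genes. The 6 mesothelial genes, of the outer lining of gut and liver, had 1590, 1450, 1490 and 1570. Most of this sum was Krt7, a keratin, with 1330, 1180, 1240 and 1350, so that it says little about the other genes of the list. The 13 genes of the small intestine had 8080, 9480, 8510 and 8550, a sum in which single genes moved in opposite directions. Fabp6 had 461, 674, 1720 and 1200 and was over 2.0-fold higher in old mice on the low-fat diet. Cubn, cubilin, had 282, 378, 135 and 152 and was over 2.0-fold lower in old mice on both diets. No other gene of this list was over 2.0-fold in any comparison.

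Genes of iron uptake, storage, export and regulation were set beside Trf. Fth1, the ferritin heavy chain, had linear signals of 9610, 9730, 8670 and 9810 on the low-fat and high-fat arrays of young and then of old mice. Tfrc, the transferrin receptor, had linear signals of 1110 on the young low-fat, 1470 on the young high-fat, 1490 on the old low-fat and 1330 on the old high-fat array. Slc40a1, the iron exporter ferroportin, had 3830, 3620, 4150 and 4380. Of the 13 genes listed, all were measured and 11 passed the floor, and none was over 2.0-fold in any comparison. Their median age difference on the high-fat diet was 0.00, against 1.62 for Trf.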

How the data were processed

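The authors deposited log2 values from RMA (version not given in the sources used here) of Mouse Gene 1.0 ST arrays, 1 array per pool. RMA corrects background, gives all arrays 1 distribution by quantiles and combines the probes of a set, so that the arrays share 1 scale. Rows bear the manufacturer's identifiers, although the methods name sets regrouped by Entrez gene. Of 35556 probe sets, 21789 were annotated to 1 gene, and the one with the highest mean stood for each of 19938 genes. A pancreatic acinar list (32 genes, 27 measured, 11 above the floor) was removed from the counts. Differences of log2 signals were taken in Python 3.11.15 with pandas 2.3.3. No test was made, as each group had 1 array. The number of arrays limits the precision. The rule for naming genes covered the members, listed genes over 2.0-fold or with the highest means, those with the largest gaps on the old low-fat array and those nearest to Trf in the age by diet difference. Not every listed gene it covers is named, and genes outside it are marked as named after their values were seen. The procedure was tested on simulated data. The members and the 18 lists (285 genes, 255 measured) were chosen with earlier results of these arrays known. Alternatives were other floors, fold thresholds, scalings and probe set rules.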

Additional observations from a re-analysis of the deposited data

Results flagged for a closer look

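Trf had age differences of opposite sign under the diets, -0.02 with low-fat and 1.62 with high-fat feeding, the first of which is close to 0. Alb had diet differences of opposite sign in young (0.10) and old (-3.40) mice, as did Serpina1c (0.07 and -2.68). The young values are close to 0 and rest on signals below the floor, so that their sign is not informative. For each gene the difference between the groups was not tested, since each group had 1 array.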

How the results depend on the processing

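With 1 array per group no replicate could be left out, and signals below the floor have inexact folds. No paired analysis was possible because each group had 1 array. Of 353 values under 9 alternative settings, 316 stayed on their side of the threshold (counts within 1.5 times), and no difference over 2.0-fold reversed. Of the smaller differences of members 4 changed sign, all of at most 0.11 on the log2 scale (Ahsg for diet in young mice from 0.04 to -0.02 and the age by diet differences of Fga from 0.09 to -0.06 and of Apoh from 0.10 to -0.05 with median centring, and Fga for age on the low-fat diet from -0.11 to 0.07 with the mean of its probe sets). The 2 members counted for age on the low-fat diet became 1 with a floor of 100 and 1 with signals below 50 raised to 50. They became 3 with a floor of 20, with none and at 1.5-fold. The 2 for diet in old mice became 4 with a floor of 20 or none (with Ahsg and Fgb). They became 1 with a floor of 100, 1 with signals raised and 3 at 1.5-fold. With median centring Ahsg fell below 2.0-fold, at 0.94 for age on the low-fat diet and -0.99 for diet in old mice. At 1.5-fold, 2 members were counted for age on the high-fat diet (1 at 2.0-fold) and 1 for diet in young mice (0). With signals raised, 3 members were highest on the old low-fat array in place of 7. Of the other plasma protein genes, 1 was counted for age on the low-fat diet with a floor of 20 or none, and at 1.5-fold 5 and 6 for age on the low-fat and high-fat diet and 3 and 3 for diet in young and old mice. The single one for age on the high-fat diet was lost (0) at 3.0-fold and with signals raised. Of the hepatocyte genes, 1 and 2 were counted for age on the low-fat and high-fat diet at 1.5-fold, and 0 for diet in young mice at 3.0-fold. The genes standing apart on the low-fat and high-fat arrays of young and then of old mice numbered 3, 18, 13 and 17 at 1.5-fold, and at 3.0-fold 0 and 1 on the arrays of young mice and 0 on the high-fat array of old mice. Median centring moved the split for diet in young mice from 10 higher and 5 lower genes to 7 and 8, and quantile normalization to 7 and 7. Beyond the thresholds themselves, the cause of these changes was not tested.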
